A study of Rattus norvegicus with 10 samples.

Results

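Cirbp and 9 other genes of the cold-shock and heat-shock responses were followed in male TgF344-AD rats, in RNA of the left hippocampus, with and without RG2833, a compound that inhibits 2 histone deacetylases, HDAC1 and HDAC3. The 10 genes are the cold-inducible Cirbp and Rbm3, the cytosolic chaperones Hspa8, Hsp90aa1, Hsph1, Dnajb1 and Hspb1, the mitochondrial chaperonins Hspd1 and Hspe1, and the transcription factor gene Hsf1. They are 10 of the 17168 genes in the deposited tables, and all 10 were among the 12161 genes that passed the filter on low counts. Cirbp was picked because its level was lower in every RG2833 library, so its difference between the groups is given as a description with no test. The other 9 were picked by function, because they respond to temperature, though with earlier results of these data known.

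RNA was sequenced from 10 male rats aged 11 months, 1 library per rat: 5 untreated rats on plain rodent chow and 5 rats fed chow with 750 mg of RG2833 per kg for 6 months. The length of treatment comes from a sentence of the series' design text that names another drug, ibudilast, whereas the title and the sample labels name RG2833. All 10 animals carry the transgenes of the TgF344-AD line, a rat model of Alzheimer's disease on the Fischer 344 background whose transgenes are driven by a mouse prion promoter. All animals were anaesthetised with ketamine and xylazine and perfused with cold saline before dissection, per the series' design text; body temperature and the time of day are not given in the sources used here.

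Mammalian cells answer a small drop in temperature by making more CIRBP and RBM3, a pair of small glycine-rich proteins that bind RNA through a single RNA recognition motif. In the brain both follow the daily rhythm of body temperature, and RBM3 is known for its part in synapse regeneration after cooling. Heat and unfolded proteins act in the other direction: HSF1 forms trimers, binds heat shock elements in DNA, and switches on the chaperones. HSPA8 is the constitutive HSP70 protein. HSPH1, of the HSP110 family, exchanges its nucleotide, and DNAJB1, an HSP40 protein, hands it unfolded clients. HSP90AA1 is the inducible cytosolic HSP90, HSPB1 is a small heat shock protein that holds unfolded proteins, and HSPD1 and HSPE1 are the HSP60 barrel and HSP10 lid of the mitochondrial folding chamber.

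Promoter windows, from 250 bases before to 50 bases after the gene start, were taken from RefSeq for the rat assembly GRCr8. This build differs from rn6, the build in the submitters' processing notes. Windows were found for 8 of the 10 genes. Those of Cirbp and Rbm3 are shown because these genes had the largest differences between the groups, those of Hspa8 and Hsph1 because their levels varied together most closely, and that of Hspe1 because it is shared with Hspd1. Capitals mark the letters of a heat shock element of at least 2 units, GAANNTTC or TTCNNGAA, and in Cirbp the octamer TCCCCGCC, which was described as a mild-cold-responsive element of this promoter. All sequences run 5′ to 3′ on the strand of the gene.
Cirbp, chr7:10189426-10189725, minus strand: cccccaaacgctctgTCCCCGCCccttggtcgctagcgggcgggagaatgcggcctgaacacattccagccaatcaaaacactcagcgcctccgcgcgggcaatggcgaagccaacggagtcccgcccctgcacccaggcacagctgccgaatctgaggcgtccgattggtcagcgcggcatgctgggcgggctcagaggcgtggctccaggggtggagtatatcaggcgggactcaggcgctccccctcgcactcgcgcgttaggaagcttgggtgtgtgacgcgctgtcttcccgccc
Rbm3, chrX:17020655-17020954, plus strand: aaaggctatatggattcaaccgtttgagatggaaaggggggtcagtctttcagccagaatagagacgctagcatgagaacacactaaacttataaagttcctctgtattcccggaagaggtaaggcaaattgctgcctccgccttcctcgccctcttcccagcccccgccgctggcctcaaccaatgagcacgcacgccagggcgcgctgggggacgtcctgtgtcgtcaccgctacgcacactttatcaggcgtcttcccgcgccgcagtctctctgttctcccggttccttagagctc
Hspa8, chr8:50080264-50080563, plus strand: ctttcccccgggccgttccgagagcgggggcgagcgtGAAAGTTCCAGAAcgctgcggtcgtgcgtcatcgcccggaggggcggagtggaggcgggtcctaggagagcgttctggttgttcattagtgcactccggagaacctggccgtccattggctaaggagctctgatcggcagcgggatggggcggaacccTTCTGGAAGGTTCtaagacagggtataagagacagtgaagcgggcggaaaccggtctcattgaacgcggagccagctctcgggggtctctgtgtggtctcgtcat
Hsph1, chr12:10427118-10427417, plus strand: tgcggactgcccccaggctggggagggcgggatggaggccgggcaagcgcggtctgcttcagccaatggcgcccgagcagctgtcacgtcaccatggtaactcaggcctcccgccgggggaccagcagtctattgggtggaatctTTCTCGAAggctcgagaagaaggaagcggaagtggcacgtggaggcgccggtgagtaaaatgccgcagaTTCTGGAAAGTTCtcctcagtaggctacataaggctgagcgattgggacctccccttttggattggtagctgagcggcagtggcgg
Hspe1, chr9:64084077-64084376, plus strand: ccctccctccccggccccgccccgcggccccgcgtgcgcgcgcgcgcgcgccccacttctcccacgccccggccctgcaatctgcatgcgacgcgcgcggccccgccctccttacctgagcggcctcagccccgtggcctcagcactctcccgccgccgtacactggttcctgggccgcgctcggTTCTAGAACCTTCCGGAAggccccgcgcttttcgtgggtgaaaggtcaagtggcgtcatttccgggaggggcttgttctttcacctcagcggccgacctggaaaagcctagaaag

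Neither heat shock element of 2 units was found in the windows of Cirbp and Rbm3, and at least 1 was found in each of the other 6 windows, of Hspa8, Hsph1, Dnajb1, Hspb1, Hspd1 and Hspe1. Of all 33469 promoter windows of this length, 15.9% held at least 1 of the pair of motifs. A run of 3 units, GAANNTTC continued by NNGAA, read on either strand, which contains both motifs of 2 units, was in 4 of the 8 windows (Hspa8, Hsph1, Hspd1 and Hspe1) and in 0.798% of all windows. In Hspa8 such runs began at bases -213 and -55 before the gene start, and in Hsph1 at base -36. Dnajb1 and Hspb1 held 2 matches each to GAANNTTC, which was in 8.59% of all windows, as against 8.77% for TTCNNGAA. The octamer TCCCCGCC, searched on both strands, was in the window of Cirbp at bases -235 to -228 and in none of the other 7; 4.79% of all windows held it. It overlapped a GC box (GGGCGG, searched on both strands), a motif that 33.1% of all windows held. The octamer and both heat shock motifs were absent from the window of Rbm3, as was the GC box. A match is a description of the letters and no measure of binding.

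**Figure D1:**
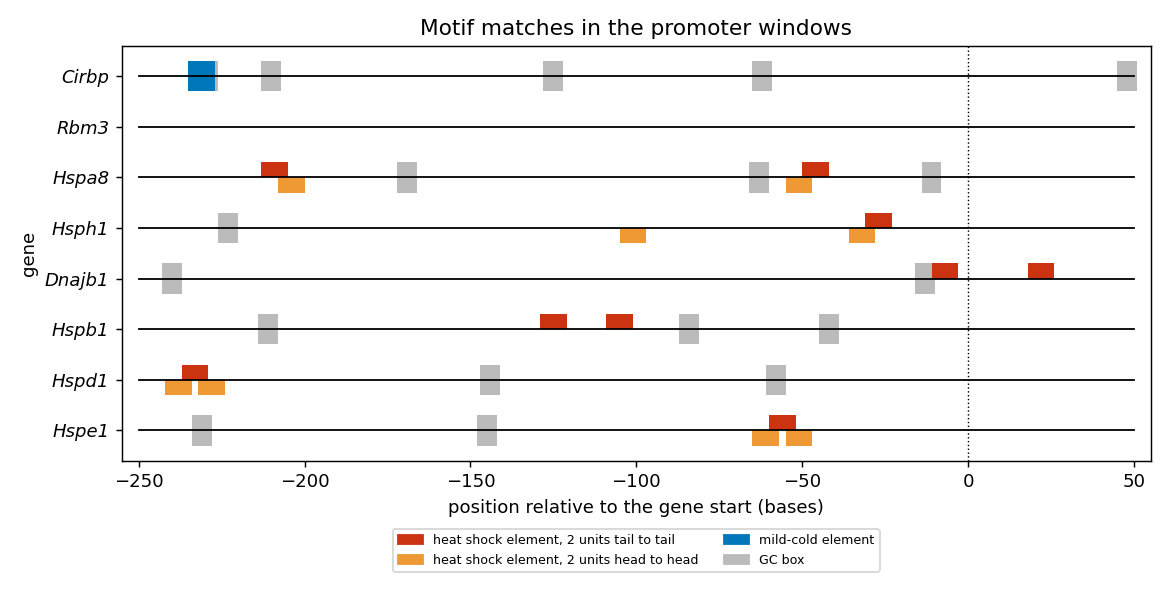
Matches to 4 motifs in 8 promoter windows of 300 bases; the horizontal axis is the position relative to the gene start in bases, and each coloured box is 1 match. Heat shock elements (red and orange) lie in the 6 chaperone windows, and the mild-cold element (blue) lies in the window of Cirbp, where it overlaps a GC box.

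Hspd1 and Hspe1 lie head to head. Their windows on chromosome 9 share 211 bases (chr9:64084077-64084287), and their starts are 290 bases apart on opposite strands. The run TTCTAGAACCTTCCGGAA in the Hspe1 window lies inside the shared stretch and is the same DNA that Hspd1 carries on its other strand.

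Levels are given as CPM, the usual counts scaled to library size, after TMM normalization, which evens out differences in RNA composition. Gene lengths were not divided out, so levels are compared between libraries and not between genes. Total expected counts ran from 15118203 to 18533520 per library; the 10 genes had whole expected counts in all 10 libraries, whereas the near-identical Hspa1a and Hspa1b did not. How reads were divided among these genes and their processed pseudogene copies, which are many for Hsp90aa1 in RefSeq, is not given in the sources used here, and levels of the chaperones are uncertain to that extent. The tissue label was checked against 8 hippocampal marker genes, of which 7 were in the table. Their summed level ran from 536.2 to 1215 CPM in untreated and from 598.9 to 1067 CPM in RG2833 libraries. The 3 lowest libraries were untreated replicate 3 (536.2 CPM) and RG2833 replicates 4 (598.9 CPM) and 5 (616.1 CPM). A further pair stood apart in 13 choroid plexus markers: untreated replicate 2 and RG2833 replicate 1 were at 11070 and 11990 CPM summed, against 112.5 to 474.9 CPM in the other 8.

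No gene of the whole table passed the comparison of the groups: in edgeR's quasi-likelihood test, 0 of 12161 genes (0%) had an adjusted p under 0.05, and 688 (5.66%) had an unadjusted p under 0.05. DESeq2 gave 6 genes, with none of the 9 tested genes among them. Of the 10 genes, Cirbp and Rbm3 were lower in all RG2833 libraries than in any untreated library. Such a gap in this direction was found for 0.584% of the genes tested, and nothing is read from it for Cirbp, which was chosen by it. Of the 9 genes not chosen by level, Rbm3 had an unadjusted edgeR p under 0.05 with a lower mean, as did 2.71% of the genes tested, and Hspe1 had one with a higher mean. For the other 7 the interval of the difference included 0. An exact permutation p under 0.05 was given by the same 2 of the 9 genes and by 6.11% of all genes tested.

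Cirbp was at 39.5, 39.6, 50.9, 43.7 and 41.4 CPM in untreated replicates 1 to 5. In RG2833 replicates 1 to 5 it was at 35.5, 36.3, 33.3, 30.0 and 33.4 CPM. The lowest untreated library, replicate 1, lay just above the highest RG2833 library, replicate 2, and the highest of all was untreated replicate 3. The means were 43.0 ± 4.73 and 33.7 ± 2.46 CPM (SD, n = 5 each). In RG2833 the level was 21.6% lower, which is -0.35 on the log2 scale (SE 0.08). With each library left out in turn the log2 fold change ran from -0.38 to -0.28, and without the 3 libraries lowest in hippocampal markers it was -0.23.

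Rbm3, the other cold-inducible RNA-binding protein gene, was at 38.7, 43.6, 40.4, 40.5 and 44.1 CPM in untreated replicates 1 to 5. In RG2833 replicates 1 to 5 it was at 33.2, 37.6, 30.2, 21.0 and 23.4 CPM. The groups did not overlap, and RG2833 replicates 4 and 5 were the lowest of all 10 libraries. The means were 41.5 ± 2.31 and 29.1 ± 6.87 CPM (SD, n = 5 each). The log2 fold change was -0.51 (SE 0.14, 95% interval -0.83 to -0.19), or a level lower by 29.9%. It did not pass over all genes (edgeR adjusted p = 0.841), and a 2-sided exact permutation test on the libraries gave an unadjusted p of 0.00794, the smallest that 5 against 5 allows. Of the 9 genes not chosen by their level, Rbm3 was the 1 whose groups did not overlap. These 9 were picked by function, but with earlier results of these data known, which limits what the permutation p can show.

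The size of the Rbm3 difference depended on single RG2833 libraries. It was -0.41 on the log2 scale when RG2833 replicate 4 was left out, -0.44 when replicate 5 was, and -0.62 when replicate 2, its highest RG2833 library, was. Leaving out untreated replicate 3, the lowest in hippocampal markers, gave -0.52. Without the 3 libraries lowest in those markers together it was -0.31 (edgeR adjusted p = 0.869). Astrocyte markers differed in mean as well: 9 of 9 tested had a higher mean in RG2833, with a median log2 fold change of 0.33. Of all 12161 genes tested, 5652 had a higher and 6509 a lower mean. The summed astrocyte level ran from 6832 to 10590 CPM in untreated and from 7874 to 11630 CPM in RG2833 libraries. These ranges overlapped. The highest astrocyte sums were in RG2833 replicates 5 (11630 CPM) and 4 (11470 CPM), the libraries with the lowest Rbm3. The next highest was untreated replicate 3 (10590 CPM), in which Rbm3 was at 40.4 CPM and Cirbp was highest of all. Of the other lists, 7 of 8 endothelial markers had a higher mean in RG2833 (median log2 fold change 0.28). A lower mean was found for 7 of 8 neuronal (-0.11), 8 of 10 oligodendrocyte (-0.14) and 3 of 3 red blood cell markers (-0.49). The rest were more mixed. A higher mean was found for 7 of 10 microglial (0.06) and 7 of 13 choroid plexus markers (0.14), and a lower one for 4 of 7 hippocampal markers (-0.03). No marker list had a gene past the adjusted threshold in edgeR, and 2 astrocyte markers had an unadjusted p under 0.05 with a higher mean, against 2.94% of all genes tested. The part of cell composition in the lower Cirbp and Rbm3 was not tested, and in bulk tissue fewer cells of a type and less RNA per cell cannot be told apart.

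**Figure D2:**
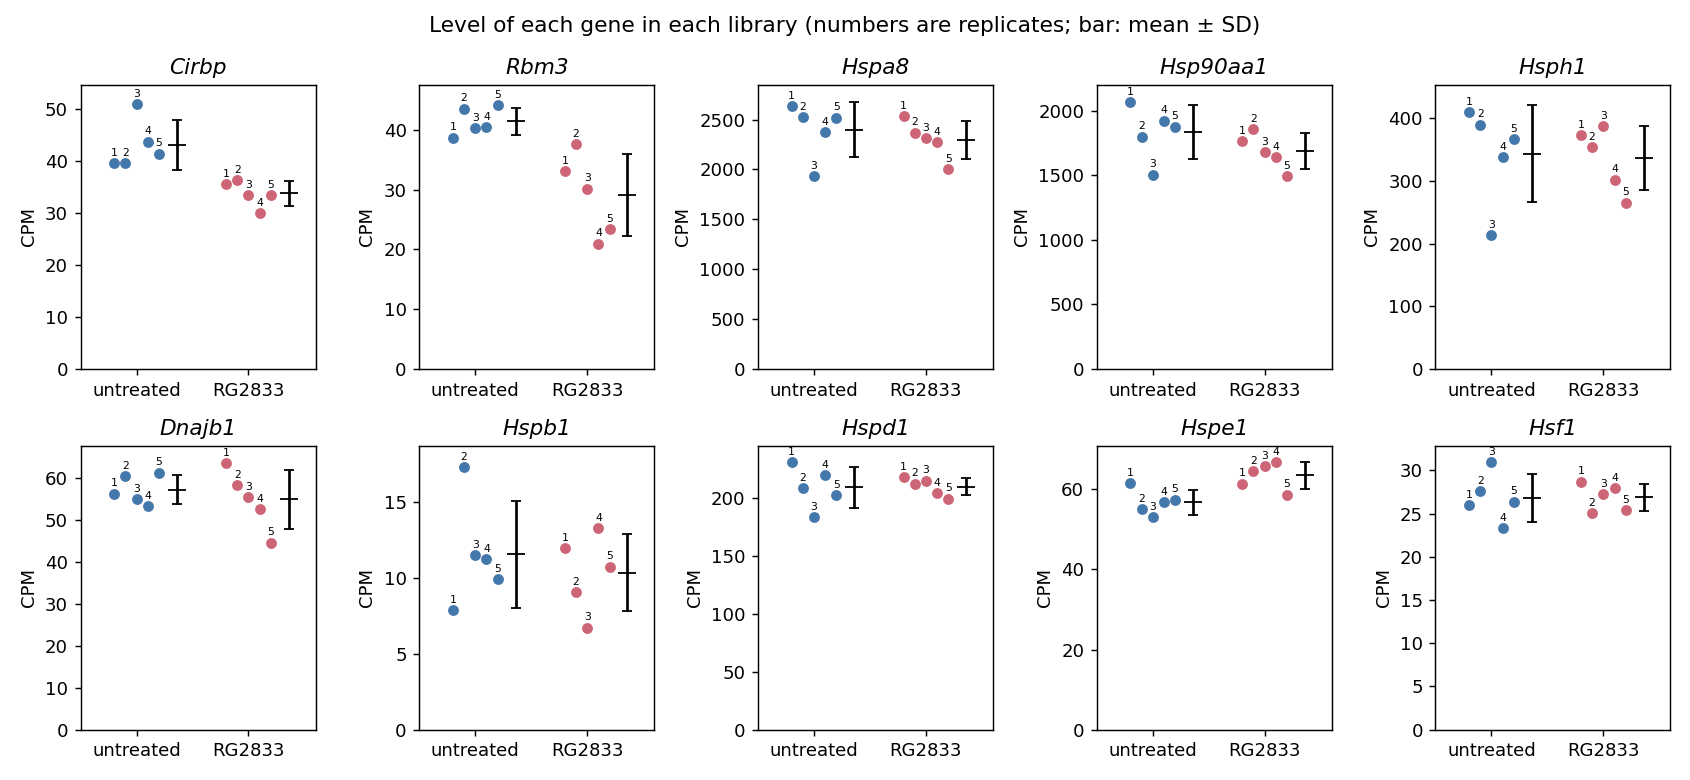
CPM (vertical axis, from 0) of each of the 10 genes in the 5 untreated (blue) and 5 RG2833 (red) libraries; small numbers are replicates, and the bar at the right of each group is the mean ± SD. For Cirbp and Rbm3 all red points lie below all blue points; for the other 8 genes the groups overlap.

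Among the constitutive and cytosolic chaperones the groups overlapped throughout. Hspa8 was at 2638, 2523, 1932, 2376 and 2520 CPM in untreated replicates 1 to 5. In RG2833 replicates 1 to 5 it was at 2530, 2368, 2312, 2272 and 2003 CPM. The lowest library of each group was untreated replicate 3 and RG2833 replicate 5, and the other 8 lay close together. The log2 fold change was -0.06 (SE 0.10, 95% interval -0.29 to 0.17; edgeR adjusted p = 0.959; exact permutation p = 0.540). It ran from -0.13 without untreated replicate 3 to -0.01 without RG2833 replicate 5.

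Hsp90aa1, the inducible HSP90, had a mean of 1834 ± 208 CPM in untreated libraries and of 1688 ± 136 CPM under RG2833 (SD, n = 5 each). It ran from 1505 to 2066 CPM in untreated and from 1495 to 1857 CPM in RG2833 libraries, so the lowest value of each group was nearly the same. Its log2 fold change was -0.12 (SE 0.10, 95% interval -0.34 to 0.10; edgeR adjusted p = 0.911; exact permutation p = 0.246), from -0.18 without untreated replicate 3 to -0.07 without untreated replicate 1.

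Hsph1, the HSP110 exchange factor, was at 410.4, 390.1, 213.7, 337.9 and 367.7 CPM in untreated replicates 1 to 5. In RG2833 replicates 1 to 5 it was at 373.3, 354.6, 388.4, 302.3 and 265.7 CPM. Untreated replicate 3 was the lowest of all 10 libraries, and the other 9 overlapped between the groups. The log2 fold change was -0.03 (SE 0.17, 95% interval -0.41 to 0.35; edgeR adjusted p = 0.996). Leaving out untreated replicate 3 gave -0.16, leaving out RG2833 replicate 5 gave 0.05, and it was also above 0 without untreated replicate 1, untreated replicate 2 or RG2833 replicate 4, so its sign rested on single libraries.

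Dnajb1, the HSP40 partner, had a mean of 57.2 ± 3.47 CPM in untreated libraries and of 54.8 ± 7.01 CPM under RG2833 (SD, n = 5 each). RG2833 replicate 5 was the lowest of all libraries at 44.5 CPM, and RG2833 replicate 1 the highest at 63.4 CPM. The log2 fold change of -0.06 (SE 0.09, 95% interval -0.26 to 0.14; edgeR adjusted p = 0.956) turned to 0.0085 without RG2833 replicate 5. Hspb1, the small heat shock protein, averaged 11.5 ± 3.51 CPM in untreated libraries and 10.3 ± 2.56 CPM under RG2833 (SD, n = 5 each). Its highest value was 17.3 CPM in untreated replicate 2, a library rich in choroid plexus RNA, and without it the log2 fold change of -0.16 (SE 0.23; edgeR adjusted p = 0.951) was 0.03. In RG2833 replicate 1, the other library rich in that RNA, Hspb1 was at 11.9 CPM, below RG2833 replicate 4 at 13.3 CPM. The part of choroid plexus RNA in its level was not tested. Hspb1 had the largest spread of the 10 genes: its biological coefficient of variation, edgeR's estimate of the relative spread between animals, was 25.7%, at the 84.0 percentile of the genes tested.

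The mitochondrial chaperonin genes share a promoter region. Hspe1, the HSP10 lid, was at 61.5, 54.96, 53.1, 56.8 and 57.4 CPM in untreated replicates 1 to 5. In RG2833 replicates 1 to 5 it was at 61.4, 64.6, 65.9, 66.8 and 58.6 CPM. In RG2833, 3 of 5 libraries lay above the highest untreated value, and all 5 lay above the untreated mean. The means were 56.7 ± 3.14 and 63.5 ± 3.36 CPM (SD, n = 5 each). On the log2 scale RG2833 was higher by 0.16 (SE 0.06, 95% interval 0.03 to 0.29). It did not pass over all genes (edgeR adjusted p = 0.841; unadjusted exact permutation p = 0.0238). An unadjusted edgeR p under 0.05 with a higher level was given by 2.94% of the genes tested, and by 1 of the 9 genes not chosen by level. For Hspe1 this p was not under 0.05 without RG2833 replicate 4, without the choroid plexus pair of libraries, and with the replicate number as a block.

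Hspd1, the HSP60 barrel, was at 230.6, 208.4, 183.3, 219.2 and 202.3 CPM in untreated replicates 1 to 5. In RG2833 replicates 1 to 5 it was at 217.7, 212.0, 214.5, 204.0 and 199.0 CPM. All RG2833 values lay inside the untreated range. The log2 fold change was 0.0048 (SE 0.07, 95% interval -0.15 to 0.15; edgeR adjusted p = 0.996). The spread between animals was small for both genes, with a biological coefficient of variation of 9.63% for Hspd1 and 9.37% for Hspe1, at the 10.2 and 7.84 percentiles of the genes tested.

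Hsf1, which encodes the transcription factor of the heat shock response, averaged 26.8 ± 2.76 CPM in untreated libraries and 26.9 ± 1.57 CPM under RG2833 (SD, n = 5 each). Its log2 fold change was 0.0025 (SE 0.08, 95% interval -0.17 to 0.18; edgeR adjusted p = 0.998; exact permutation p = 0.952). The highest and the lowest of all libraries were both untreated, replicate 3 at 30.9 and replicate 4 at 23.3 CPM. The activity of HSF1 depends on its protein and was not measured.

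The rest of the pathway was described by lists of related genes. Over all 12161 genes tested the median log2 fold change was -0.01, and 6509 had a lower and 5652 a higher mean in RG2833. Of 5 tested cold-shock genes besides Cirbp, 0 passed over all genes, and at an unadjusted p under 0.05 were Rbm3, lower, and Csdc2, higher in RG2833, against 5.66% of all genes in either direction. Csdc2, which encodes a cold shock domain protein of the brain, averaged 78.5 ± 14.4 CPM in untreated libraries and 95.9 ± 11.2 CPM under RG2833, a difference of 0.29 on the log2 scale (SE 0.13; edgeR adjusted p = 0.841; unadjusted exact permutation p = 0.0714). Its groups overlapped, and its unadjusted p was not under 0.05 with upper-quartile scaling and in 8 of 10 fits that left out 1 library. In the HSF list of 4 tested genes the lowest was Hsf4, with a log2 fold change of -0.32 (SE 0.15; edgeR adjusted p = 0.841), and the highest was Hsbp1, the HSF1-binding protein gene, at 0.05, which ran from 0.0066 without untreated replicate 2 to 0.09 without untreated replicate 3.

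Among genes that HSF1 is known to induce, 21 were tested, 0 passed over all genes, 14 had a lower and 7 a higher mean in RG2833, and the median log2 fold change was -0.03. At an unadjusted p under 0.05 were 2, both higher in RG2833, as were 2.94% of all genes tested: Hspe1 and Bag3. Bag3 encodes a co-chaperone that couples HSP70 to selective autophagy. It averaged 24.3 ± 2.07 CPM in untreated libraries and 30.4 ± 3.43 CPM under RG2833 (SD, n = 5 each), and the groups did not overlap, as for 0.419% of the genes tested in this direction. The log2 fold change was 0.32 (SE 0.09; edgeR adjusted p = 0.841; exact permutation p = 0.00794, unadjusted). Without the 3 libraries lowest in hippocampal markers it was 0.24. The median of the list turned on single libraries: it was -0.13 without untreated replicate 3, 0.03 without untreated replicate 1 and 0.01 without RG2833 replicate 5. Without untreated replicate 3, 2 of its genes were higher and 2 lower at an unadjusted p under 0.05, where 14.2% of all genes had such a p. At the other end of the list was the stress-inducible Hspa1a, at -0.19 on the log2 scale (SE 0.30). Its value ran from -0.36 without untreated replicate 3 to -0.0093 without untreated replicate 2.

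In the families of chaperones 0 genes passed over all genes tested, and counts at an unadjusted p under 0.05 are to be read against 5.66% of all genes. Of 15 HSP70 and HSP110 genes, 0 had an unadjusted p under 0.05; the median log2 fold change was -0.01, from -0.19 for Hspa1a to 0.17 for Hspa1l. Of 4 HSP90 genes, 0 did, from -0.12 for Hsp90aa1 to 0.06 for Hsp90b1, which encodes the form in the endoplasmic reticulum. With 1 library left out Hspa1l ran from 0.05 (untreated replicate 3) to 0.29 (untreated replicate 2), and Hsp90b1 from 0.0030 (RG2833 replicate 1) to 0.12 (untreated replicate 2). Of 6 small heat shock protein genes, 0 did, from -0.16 for Hspb1 to 0.17 for Cryab, the lens and glial alpha-B crystallin gene. With 1 library left out Cryab ran from 0.01 (without RG2833 replicate 5) to 0.30 (without untreated replicate 4), and without the 3 libraries lowest in hippocampal markers it was -0.22. Of 11 mitochondrial chaperone genes, Hspe1 did, and the lowest was Hscb at -0.06, a co-chaperone of iron-sulfur cluster assembly, which ran from -0.12 (without untreated replicate 4) to -0.03 (without untreated replicate 2). All 8 genes of the cytosolic chaperonin had a lower mean, within a narrow range from -0.09 for Tcp1 to -0.02 for Cct3, and 0 had an unadjusted p under 0.05. This direction rested on single libraries: 5 of the 8 had a lower mean without untreated replicate 1 or without RG2833 replicate 4, 6 without untreated replicate 5, 7 without untreated replicate 2, and 3 without RG2833 replicate 5, where the median was 0.0068. Counts at an unadjusted p under 0.05 also changed without untreated replicate 3, where 14.2% of all genes had such a p. In that fit 1 HSP70 or HSP110 gene and 1 small heat shock protein gene were higher. Of the mitochondrial chaperone genes 1 was higher and 1 lower, and 1 gene of the HSF list was lower. In these lists 0 genes passed over all genes.

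Among 37 genes of the J-domain family, which stimulate HSP70, 3 had an unadjusted p under 0.05, as did 5.66% of all genes tested, and 0 passed over all genes. Dnajc2, a co-chaperone at the ribosome, had a log2 fold change of -0.21 (SE 0.07), Dnajc27 one of 0.23 (SE 0.10), and Dnajc19, of the inner mitochondrial membrane, one of 0.15 (SE 0.07). All 3 had the same edgeR adjusted p, 0.841. The unadjusted p of Dnajc27 was not under 0.05 in 13 of 20 alternatives and that of Dnajc19 in 15 of 20; that of Dnajc2 was so in 1, without the 3 libraries lowest in hippocampal markers. Among 24 co-chaperones, Bag3 had an unadjusted p under 0.05, and the lowest log2 fold change was -0.18 for Bag2, from -0.26 without untreated replicate 3 to -0.098 without untreated replicate 2. Without untreated replicate 3, 1 J-domain gene was higher and 4 were lower at an unadjusted p under 0.05, as were 2 and 2 co-chaperones; 14.2% of all genes had such a p in that fit, and 0 genes of these lists passed over all genes.

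**Figure D3:**
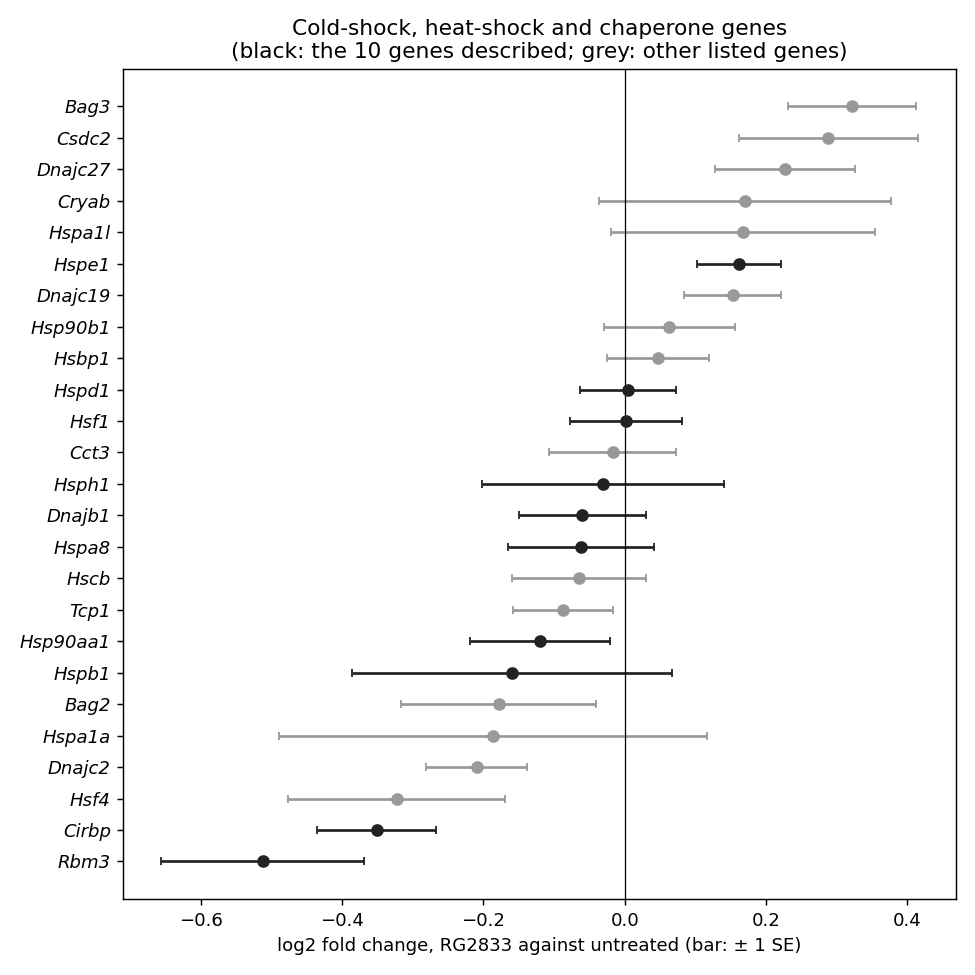
Log2 fold change of RG2833 against untreated (horizontal axis; bars are ± 1 SE) for the 10 genes (black) and the named genes of the related lists (grey). Rbm3 at -0.51 and Cirbp at -0.35 lie lowest and Bag3 at 0.32 highest. None of these genes passed over all genes tested, and nothing is read from this for Cirbp, which was chosen by its level.

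How the 10 genes varied together was measured after the group means were removed, so that the difference that chose Cirbp does not enter. Over the 45 pairs and 10 libraries, 26 Pearson correlations of log2 CPM were positive, and 2 passed a 2-sided exact permutation test over 14400 reorderings within the groups with adjustment over the 45 pairs. These were Hspa8 with Hsph1 (r = 0.95, p = 0.000903, adjusted p = 0.0406) and Hsp90aa1 with Hspd1 (r = 0.90, p = 0.00208, adjusted p = 0.0469). As Spearman correlations 0 of the 45 pairs passed the exact permutation test after adjustment: rho was 0.87 for the first pair (p = 0.00375, adjusted p = 0.169) and 0.84 for the second (p = 0.00868, adjusted p = 0.174). Without the 2 libraries farthest from the median of the first gene, r was 0.69 and 0.70.

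Neither pair passed when any 1 of the untreated libraries, RG2833 replicate 4 or RG2833 replicate 5 was left out, and Hsp90aa1 with Hspd1 did not pass without RG2833 replicate 1 or 3 either. Without untreated replicate 3, r was 0.88 for Hspa8 with Hsph1 and 0.78 for Hsp90aa1 with Hspd1, and neither passed (exact permutation, adjusted p = 0.188 and 0.214). Without RG2833 replicate 5, neither passed either (adjusted p = 0.188 for both, exact permutation). Over 14 alternatives, r stayed between 0.88 and 0.98 for the first pair and between 0.78 and 0.94 for the second; 5 and 3 of the 14 passed. Hspa8, Hsp90aa1, Hsph1 and Hspd1 were correlated with one another at r from 0.83 to 0.95. Their remaining pairs fell further without the 2 libraries farthest from the median of the first gene. There r was 0.48 for Hspa8 with Hsp90aa1, 0.42 for Hspa8 with Hspd1, 0.33 for Hsp90aa1 with Hsph1 and 0.48 for Hsph1 with Hspd1.

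Untreated replicate 3 and RG2833 replicate 5, both low in hippocampal markers, lay at the low end of these genes. Hsph1 lay below its group mean by a log2 difference of -0.65 in untreated replicate 3 and by -0.33 in RG2833 replicate 5, and Hspa8 by -0.30 and -0.19. RG2833 replicate 4, lower in hippocampal markers than replicate 5, lay closer to its group mean. Its log2 differences were -0.14 for Hsph1, -0.01 for Hspa8, -0.03 for Hsp90aa1 and -0.04 for Hspd1. Summed neuronal markers were lowest in untreated replicate 3, at 5374 CPM, while the remaining untreated libraries ran from 5869 to 7183 CPM. In RG2833 replicate 5 they were at 6106 CPM, within the group's range of 6037 to 6784 CPM. The part of cell composition in these correlations was not tested.

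**Figure D4:**
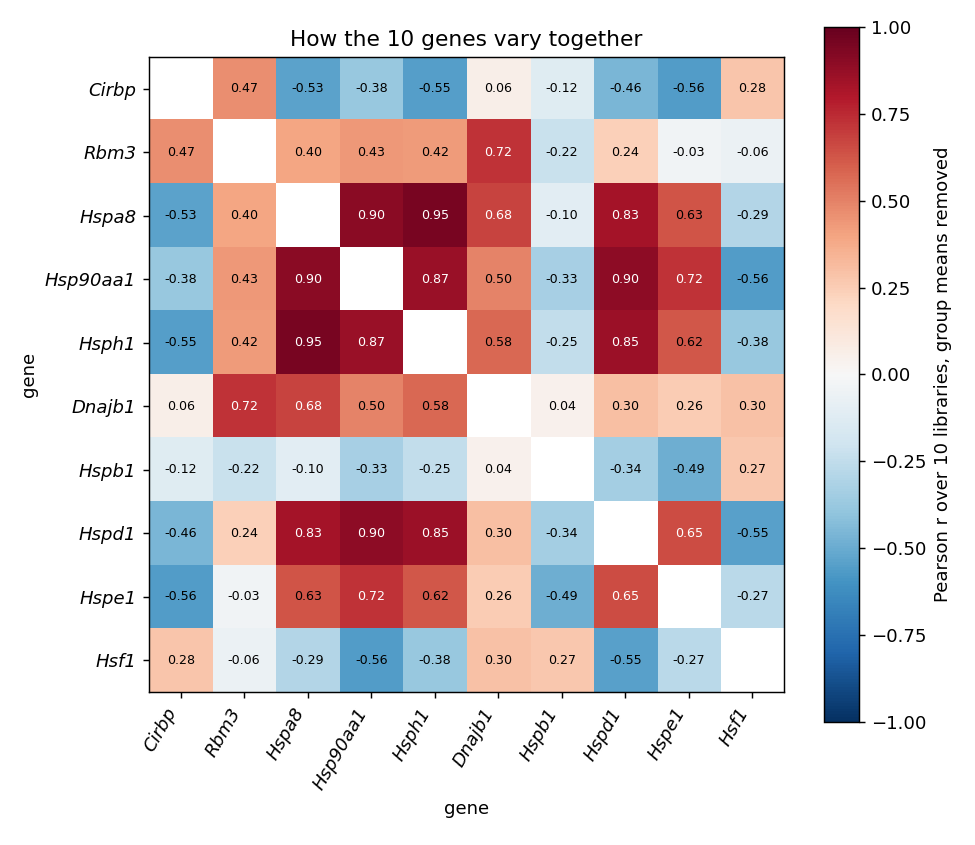
Pearson r of log2 CPM for each of the 45 pairs of genes over 10 libraries, with group means removed (red positive, blue negative). Hspa8, Hsp90aa1, Hsph1 and Hspd1 have r from 0.83 to 0.95 with one another. Without the 2 libraries farthest from the median of the first gene, these r ran from 0.33 to 0.70. Cirbp has r from -0.56 to 0.47 with the other genes.

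Cirbp and Rbm3 were not shown to vary together within the groups. Their r was 0.47 (exact permutation p = 0.106, adjusted p = 0.323; rho = 0.47, p = 0.195, adjusted p = 0.463), and 0.55 without the 2 libraries farthest from the median of Cirbp. Leaving out untreated replicate 3 gave r = 0.78 (exact permutation, adjusted p = 0.266), and leaving out RG2833 replicate 4 gave r = 0.23 (exact permutation, adjusted p = 0.560). In RG2833 replicate 4 both were lowest, at log2 differences of -0.16 and -0.43 from the group mean, while untreated replicate 3 was highest in Cirbp (0.25) and near the mean in Rbm3 (-0.04). The 2 RG2833 libraries highest in Cirbp, replicates 1 and 2, were also highest in Rbm3, whereas the 2 untreated libraries highest in Cirbp, replicates 3 and 4, lay slightly below the mean of Rbm3. With 5 libraries a group no correlation is given within groups. Hspd1 and Hspe1, in spite of their shared promoter region, had r = 0.65 (exact permutation p = 0.0515, adjusted p = 0.232; rho = 0.52, p = 0.145, adjusted p = 0.463) and 0.22 without the 2 farthest libraries.

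**Figure D5:**
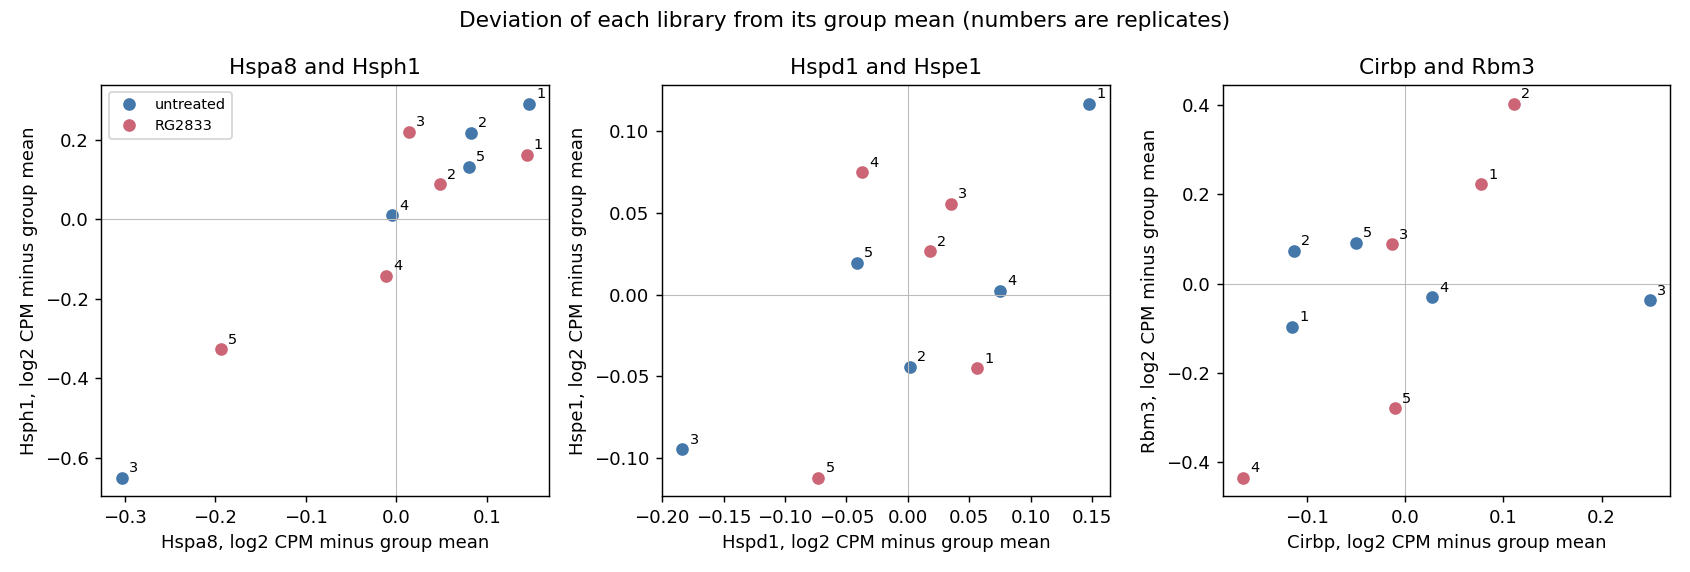
Deviation of log2 CPM from the group mean in each library (blue untreated, red RG2833; numbers are replicates) for 3 pairs of genes. Untreated replicate 3 and RG2833 replicate 5 lie at the low end for Hspa8 and Hsph1, and RG2833 replicate 4 lies at the low end for Cirbp and Rbm3.

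The genes whose levels were most like those of Cirbp, by Pearson r over 10 libraries with group means removed, were Pip4k2c (r = 0.91), a lipid kinase gene, and Srsf11 (r = 0.90), a splicing factor gene. Next came Thumpd2 (0.88), Tbxa2r (0.87) and Lpxn (0.86). Pip4k2c and Srsf11 had lower means in RG2833, with log2 fold changes of -0.19 (SE 0.08) and -0.17 (SE 0.06), while Thumpd2 was at -0.02 and Tbxa2r at 0.30. For Rbm3 the closest were Ccdc130 (r = 0.95), Mterfd2 (0.92), Cetn4 (0.91), Fibp (0.91) and Alg6 (0.90). For Hsph1 the closest included the neuronal genes Gria1 (0.99), an AMPA receptor subunit, and Nptx1 (0.99), a synaptic pentraxin, with Adam19 (0.99) and the translation factor gene Eif2s1 (0.99). These are descriptions of 10 libraries that share their scaling, and they were chosen as the highest of 12161 genes. Of the other 9 genes Hspa8 was the closest to Hsph1, and it ranked 334 among the genes tested. Hsp90aa1 ranked 1341 and Hspd1 ranked 1462, so many genes of other kinds were closer to Hsph1.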

How the data were processed

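Poly(A) RNA of the left hippocampus was sequenced with a strand-specific kit, 1 library per rat, per the labels' protocols; nothing says whether rats shared a litter or batch. The authors deposited RSEM expected counts per gene, of which 11.64% were not whole, and a TMM-normalized CPM signal. Per the submitters' processing notes the tools were bcl2fastq 2.17, Bowtie2 2.1.0, RSEM 1.2.15 and edgeR, and the build was rn6; the annotation is not given in the sources used here. In the deposited signal, 100% of the values were whole multiples of a step (tolerance 0.01 reads), and 99.93% of the reads recovered equalled the rounded counts; edgeR called 0 genes on them.

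Expected counts were rounded and fitted with edgeR 4.0.16 (R 4.3.3): filterByExpr (minimum count 10, total 15), TMM, the robust quasi-likelihood F test, and Benjamini-Hochberg adjustment over all 12161 genes tested, with a threshold of 0.05. Log2 CPM used a prior count of 2. Exact permutation tests were computed in Python 3.11.15. On simulated data, 77% of 200 genes changed 2-fold among 12113 were recovered, with 8 other calls. Alternatives were median-of-ratios and upper-quartile scaling, DESeq2 1.42.0, no filter, limma 3.58.1 on the authors' signal, a replicate block, and left-out libraries. No libraries were duplicates (chi-square per gene at least 7.20 over 45 pairs). Same-numbered rats did not deviate together, so the numbers were not used as pairs.

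The genes and lists were chosen with earlier results of these data known. Named were the 10 genes, listed genes at an unadjusted p under 0.05 or with the largest change in each direction in their list, and the 5 genes most like Cirbp, Rbm3 and Hsph1, of which 1 is not reported here. The fit without the 3 libraries lowest in hippocampal markers, and that on recovered reads, were added after the data were seen.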

Additional observations from a re-analysis of the deposited data

Results flagged for a closer look

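For 25 named genes the highest and lowest library of each group were examined. A value was looked at again where the distance to its closest neighbour was over 0.71 of the range of the group, both on log2 CPM. This was so in 2 of 50 sets of 5 values, where chance gives about 2.5, or 1 in 20. Both were in RG2833 replicate 5. Hspa1a, the stress-inducible HSP70 gene, was at 11.96 CPM there and at 21.5 to 26.8 CPM in the other RG2833 libraries, a gap of 0.725 of the range on log2 CPM and of 0.641 on CPM. Hspa1l, its neighbour in the HSP70 family, was at 2.70 CPM there and at 3.61 to 4.03 CPM in the others, a gap of 0.727 of the range on log2 CPM and of 0.687 on CPM. On the CPM scale neither value was past 0.71. Expected counts of both were not whole, and as these genes have near-identical copies the values are uncertain. Neither gene is among the 10 described.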

How the results depend on the processing

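The signs of Rbm3, Hspa8, Hsp90aa1 and Hspe1 were the same under all alternatives, and 0 of the 9 tested genes passed over all genes in any of them. DESeq2 called 6 genes of the table. An unadjusted p under 0.05 was given by 401 genes with the replicate number as a block, and 375 to 1732 with 1 library left out (lowest without RG2833 replicate 4, highest without untreated replicate 3). The block was only an alternative, since same-numbered rats had correlations of deviations from -0.487 to -0.0339, and 0 of 10 libraries correlated best with their own number; it left 0 genes past the threshold. Groups did not overlap for 171 to 575 genes with 1 library left out, 397 without untreated replicate 2 and RG2833 replicate 1, which are rich in choroid plexus RNA, and 806 without the 3 libraries lowest in hippocampal markers; smaller groups are apart more often by construction. Exact permutation p-values under 0.05 were found for 2 of the 9 genes, Rbm3 and Hspe1, for 2 to 3 with 1 library left out, and for 1 without the choroid plexus pair. Pairs of genes past the adjusted threshold numbered 0 to 2 with 1 library left out (the 2 without untreated replicate 4 were other pairs, Hspd1 with Hspa8 and with Hsph1), 0 under upper-quartile scaling and 0 without the choroid plexus pair. Some genes changed sign. Hsf1 was at -0.0056 under upper-quartile scaling and -0.019 without the choroid plexus pair, and Hspd1 at -0.00077 and -0.018. Without the 3 libraries lowest in hippocampal markers Hspd1 was at -0.0060, Dnajb1 at 0.028 and Cryab at -0.22. Hsph1 was at 0.0014 and 0.0015 in limma with pseudocounts of 1 and 0.1. With 1 library left out, log2 fold changes ran from -0.16 to 0.047 for Hsph1, -0.038 to 0.043 for Hspd1, -0.044 to 0.059 for Hsf1, -0.27 to 0.034 for Hspb1, -0.12 to 0.0085 for Dnajb1 and -0.086 to 0.025 for Cct3. The cause of these changes was not tested. Permutation tests were not run without the 3 libraries. Changes under 2-fold may be missed at this depth and spread.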
